A study of Mus musculus with 6 samples.

Results

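The guanylate-binding and Ifi200 family genes described here are 10 named genes, Gbp2b, Gbp2, Gbp3, Gbp4, Gbp6, Gbp7, Ifi202b, Ifi203, Ifi204 and Ifi205, measured on arrays of whole mouse hearts. A gene counted as measured where a probe set carried its symbol alone in the platform annotation, and 7 of the 10 genes had 1 such probe set each, among 23410 probe sets with a gene symbol. The other 3, Gbp2, Gbp6 and Ifi204, were read only by probe sets that the annotation assigns to several genes, so no level of theirs is given. The genes were listed as members of families known to vary between mouse strains, and the list was selected on earlier log2 differences of these same hearts, Ppif-/- minus WT, so those differences are descriptions below and no test is read from them. The 6 hearts, 1 array each, came from 3 Ppif-/- mice, which carry a global knockout of the cyclophilin D gene, and 3 wild-type (WT) mice, all aged 8 weeks and labelled C57BL/6. Per the labels, the Ppif-/- line was made on a Sv129 background and then crossed back to C57BL/6. The number of backcrosses, the C57BL/6 substrain, the sex of the mice and whether WT mice were littermates are not stated in the labels, which also do not say whether hearts of a genotype were collected together. The series was designed to look for transcripts that differ before the heart muscle starts to fail.

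Guanylate-binding proteins are large GTPases that cells make in response to interferons, above all interferon gamma, and that coat the vacuoles and membranes of intracellular microbes. The Ifi200 proteins carry HIN domains, which bind DNA, and many also carry a pyrin domain that links them to inflammasomes. Mouse genes of both families lie in clusters of similar copies, the guanylate-binding genes on chromosomes 3 and 5 and the Ifi200 genes on chromosome 1. Their transcripts are widely used as a readout of interferon signalling, which acts through a DNA element called ISRE, bound by IRF factors, and through another called GAS.

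The start regions of the members are shown because interferons act there. RefSeq windows on GRCm38.p6, an assembly of the C57BL/6J substrain, run from 250 bases before to 50 bases after a gene's start, and 7 of the 10 members had an entry, with Gbp4, Gbp6 and Ifi204 without one. Capitals mark a match to the core ISRE letters, which are GAAA, any 2 bases and GAAA on either strand (TTTC, any 2 bases and TTTC when read from the other strand). The windows of the members with the clearest difference, Gbp2b and Ifi202b, are given whole.
Gbp2b, chr3:142594597-142594896, + strand: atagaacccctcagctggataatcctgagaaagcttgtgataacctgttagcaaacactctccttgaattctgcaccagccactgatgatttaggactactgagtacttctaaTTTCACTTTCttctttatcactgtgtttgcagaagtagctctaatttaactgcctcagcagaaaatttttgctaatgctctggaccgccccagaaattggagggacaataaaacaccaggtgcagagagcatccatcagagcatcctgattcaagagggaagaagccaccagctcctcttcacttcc
Ifi202b, chr1:173982795-173983094, - strand: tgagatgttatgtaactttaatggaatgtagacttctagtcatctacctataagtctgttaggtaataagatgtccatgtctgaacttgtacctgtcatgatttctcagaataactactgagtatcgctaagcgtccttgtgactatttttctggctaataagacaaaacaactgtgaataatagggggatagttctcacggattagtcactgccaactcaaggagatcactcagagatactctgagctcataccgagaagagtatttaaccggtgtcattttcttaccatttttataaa
For the other members with a match, the match and 10 bases on each side are given.
Gbp2, chr3:142620594-142620623, + strand: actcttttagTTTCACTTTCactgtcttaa
Gbp3, chr3:142559989-142560018, + strand: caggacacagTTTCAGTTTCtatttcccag
Gbp7, chr3:142530273-142530302, + strand: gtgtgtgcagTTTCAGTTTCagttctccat
Ifi203, chr1:173942508-173942537, - strand: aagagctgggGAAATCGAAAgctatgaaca
Ifi205, chr1:174031870-174031899, - strand: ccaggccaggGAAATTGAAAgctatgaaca
Gbp2b and Gbp2 hold the same 10 letters at 137 and 59 bases before their starts, and Gbp3 and Gbp7 share another form at 45 and 53 bases before theirs. Gbp3 holds a second, overlapping match at 39 bases before the start, and Ifi205 a second one after it. Ifi203 and Ifi205 share the bases that follow the match, and the match in Ifi203 lies in 1 of its 2 annotated windows. In all, 6 of the 7 members with an entry held the ISRE letters, as did 8 of 10 other family genes with an entry, while 3.99% of the 27025 genes in the table did (3.44% of its 32851 windows). Ifi202b was the 1 member without them, in a window read from the C57BL/6J assembly, which may not show the start region that other strains have. Aim2 and Ifi209 were the other family genes without them. The GAS letters, TTCNNNGAA, were found in Gbp7 and Ifi202b among members and in 9.55% of all genes (8.3% of windows), with no overlap with an ISRE match. These matches describe letters in the reference sequence and not binding in these hearts.

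The arrays gave log2 values per probe set made with RMA, with medians of 6.03 to 6.11 per array. RMA compresses differences at low signal, and without detection calls a value near the lower quartile of an array, 4.59 to 4.67, cannot be told from background. Ppif, the check of the genotype labels, lay at 6.00 to 6.44 in the Ppif-/- hearts, against 11.28 to 11.49 in the WT hearts (log2). The 6 cardiomyocyte markers lay between 12.61 and 14.23 in Ppif-/- hearts and between 12.83 and 14.24 in WT hearts. In the limma fit across all probe sets with a symbol, 1.09% passed a Benjamini-Hochberg adjusted p of 0.05, and 19.8% had groups that did not overlap.

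Gbp2b, the gene long called Gbp1 and a classical interferon gamma target, was clearly lower in Ppif-/- hearts. It read 4.76, 5.10 and 4.99 in Ppif-/- hearts, against 7.61, 7.56 and 7.26 in WT hearts (log2). All 3 Ppif-/- hearts lay below all 3 WT hearts, and the Ppif-/- values lay just above the lower quartile of their arrays. The means were 4.95 ± 0.17 for Ppif-/- hearts and 7.48 ± 0.19 for WT hearts (SD, n = 3 each). The difference was -2.53 ± 0.12 (log2, SE of the fit), a level 5.78-fold lower in Ppif-/- hearts, and it lay between -2.64 and -2.44 whichever heart was left out. Because the Ppif-/- signal was near background, this fold may be understated. In whole hearts, fewer cells that express a gene and less RNA per cell cannot be told apart.

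The neighbours of Gbp2b in the chromosome 3 cluster lay near 0 or in the other direction. Gbp3 read 8.51, 7.87 and 7.59 in Ppif-/- hearts, against 7.58, 7.72 and 7.52 in WT hearts (log2). The groups overlapped, and Ppif-/- heart 1 stood above the other 5 hearts. Its difference was 0.38 ± 0.21, but leaving out Ppif-/- heart 1 gave 0.12 and leaving out Ppif-/- heart 3 gave 0.58. Gbp7, a guanylate-binding gene farther along the same cluster, read 9.25, 8.88 and 8.72 in Ppif-/- hearts, against 8.70, 9.10 and 8.80 in WT hearts. The groups overlapped fully, with a difference of 0.09 ± 0.15. Without Ppif-/- heart 1 it was -0.07, without WT hearts 1 and 3 in turn 0.00 and 0.05, and 0.20 without Ppif-/- heart 3 or WT heart 2. One probe set is assigned to both Gbp2 and Gbp2b, and its value belongs to neither alone. It read 8.63, 8.12 and 7.85 in Ppif-/- hearts, against 7.70, 8.29 and 7.93 in WT hearts, with overlapping groups and a difference of 0.23 ± 0.21. Leaving out Ppif-/- hearts 1 and 3 in turn gave 0.01 and 0.40, and leaving out WT hearts 1 and 2 in turn gave 0.09 and 0.39. What share of that probe set's signal comes from Gbp2b was not tested, and it did not show the low Ppif-/- values of the probe set that reads Gbp2b alone.

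On chromosome 5, Gbp4 read 8.21, 7.78 and 7.88 in Ppif-/- hearts, against 7.46, 8.12 and 7.33 in WT hearts (log2). WT heart 2 stood with the Ppif-/- hearts, so the groups overlapped. The difference was 0.32 ± 0.21, but leaving out Ppif-/- heart 1 gave 0.19, and leaving out WT hearts 2 and 3 in turn gave 0.56 and 0.16. Gbp6 was read only by a probe set assigned to 6 guanylate-binding genes of this cluster (Gbp4, Gbp6, Gbp8, Gbp9, Gbp10 and Gbp11). That shared probe set read 9.58, 9.25 and 9.35 in Ppif-/- hearts, against 9.52, 10.65 and 9.52 in WT hearts. WT heart 2 stood 1 log2 unit or more above the other 5 hearts, and the difference was -0.50 ± 0.28 with it and -0.13 without it. The copies in this cluster are similar in sequence, so hybridisation across copies may blend the values of these probe sets, and it was not tested.

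Among the Ifi200 members, Ifi202b had the largest difference, lower in Ppif-/- hearts. Ifi203, Ifi205 and the probe set that Ifi204 shares also lay below 0, by less and without passing the threshold in limma. Ifi202b encodes a protein with HIN domains but no pyrin domain, which in mouse cells antagonises the DNA sensor Aim2, and C57BL/6J mice are known to carry a small deletion at the start of the gene. It read 3.61, 3.67 and 3.42 in Ppif-/- hearts, against 4.57, 4.53 and 4.52 in WT hearts (log2). The groups did not overlap, but every one of the 6 values lay below the lower quartile of its array. The difference was -0.98 ± 0.08, or 1.97-fold lower in Ppif-/- hearts, and stayed between -1.03 and -0.90 whichever heart was left out. Such low signals cannot show whether the transcript was present in either genotype.

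Ifi203, which encodes a HIN domain protein, read 8.63, 8.52 and 8.12 in Ppif-/- hearts, against 8.83, 8.61 and 9.01 in WT hearts. The groups touched, since Ppif-/- heart 1 lay just above WT heart 2, and the difference was -0.39 ± 0.15, and -0.24 without Ppif-/- heart 3. Ifi205, a closely related HIN domain gene, read 8.09, 8.01 and 8.36 in Ppif-/- hearts, against 8.30, 8.66 and 8.14 in WT hearts. Those groups overlapped, with a difference of -0.21 ± 0.15 that was -0.06 without WT heart 2. Leaving out Ppif-/- hearts 2 and 3 in turn gave -0.14 and -0.32, and leaving out WT heart 3 gave -0.32. Ifi204, the mouse relative of human IFI16, shared its probe set with Ifi211. This shared probe set read 7.30, 6.97 and 6.73 in Ppif-/- hearts, against 7.39, 7.48 and 7.36 in WT hearts, a difference of -0.41 ± 0.13 with groups that did not overlap but lay close, Ppif-/- heart 1 next to WT heart 3.

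**Figure D1:**
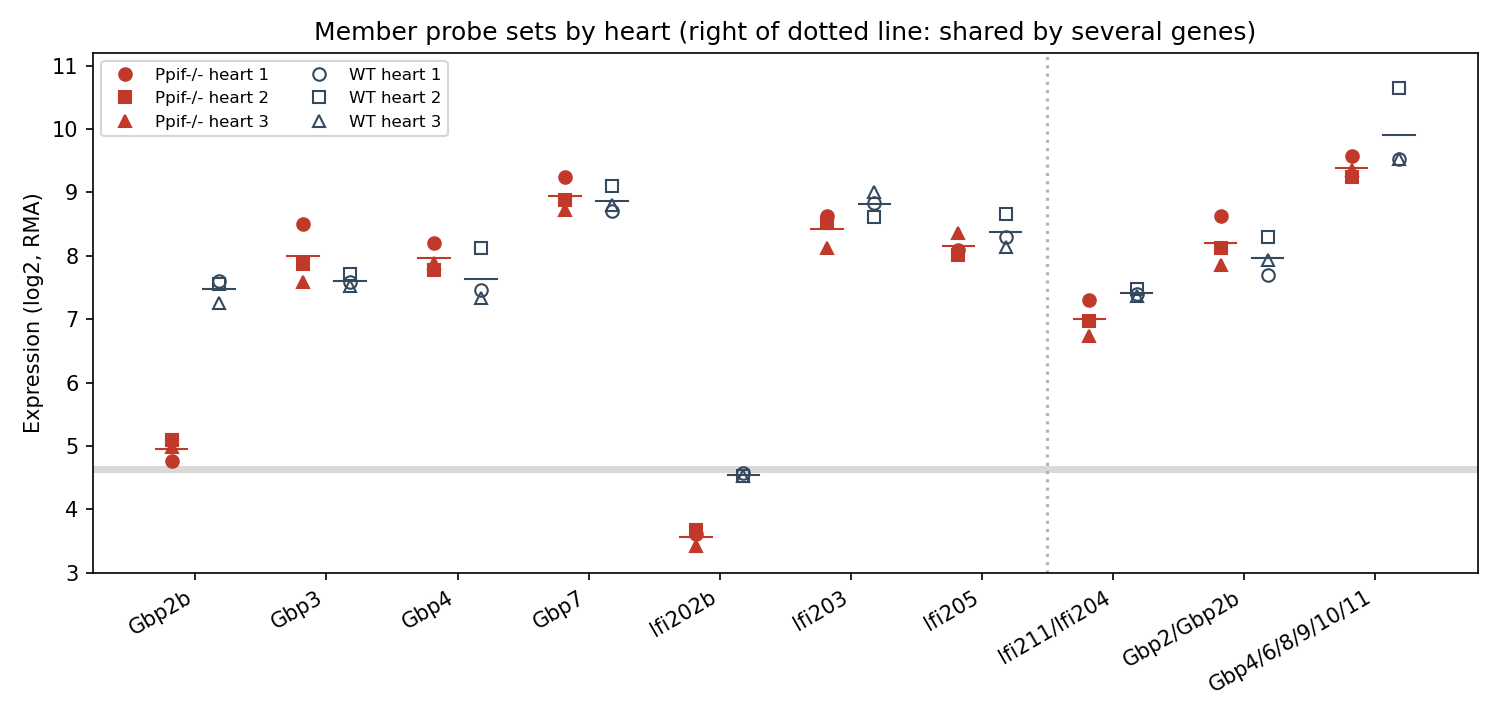
Expression (log2, RMA) of each member probe set in 3 Ppif-/- hearts (filled red) and 3 WT hearts (open dark), with a symbol shape for each heart number, short lines for group means, and a grey band for the lower quartiles of the 6 arrays (4.59 to 4.67). Gbp2b and Ifi202b are the 2 probe sets of a single gene whose groups stand apart, Ifi202b with all values below the band, and probe sets right of the dotted line are shared by several genes.

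Counted over the 7 members measured alone, 2 lay past the threshold in limma, both lower in Ppif-/- hearts, beside 1.09% of all probe sets (0.461% lower and 0.624% higher). The same 2 had groups that did not overlap, beside 19.8% of all probe sets. Because the members were listed with these differences known, the counts are descriptions. The differences of the 7 had a median of -0.21, with 3 above 0, beside a median of -0.006 and 48.2% above 0 over 19920 genes. By family, 3 of 4 guanylate-binding members were above 0 (Gbp3, Gbp4 and Gbp7) and 0 of 3 Ifi200 members were.

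The remaining genes of both families gave no call. Of 11 measured alone, 0 passed in limma over all probe sets, 5 had an unadjusted p under 0.05, and 5 had groups that did not overlap, Gbp5, Gbp9, Aim2, Ifi206 and Ifi209. Over the whole table, 13.1% of 19920 genes had an unadjusted p under 0.05 and 19.8% of probe sets had groups that did not overlap. Gbp9 differed by 0.39 ± 0.12 (limma adjusted p = 0.215) and read 8.90, 8.69 and 8.63 in Ppif-/- hearts, against 8.21, 8.58 and 8.27 in WT hearts. Gbp5, which promotes inflammasome assembly, differed by 0.30 ± 0.11 (limma adjusted p = 0.292) and read 7.09, 6.82 and 6.78 in Ppif-/- hearts, against 6.61, 6.73 and 6.46 in WT hearts. Every Ppif-/- heart lay above every WT heart for both, by a narrow margin. Gbp8 (0.12 ± 0.14) and Gbp11 (-0.17 ± 0.12), a transcribed pseudogene in the gene table, had overlapping groups.

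In the Ifi200 cluster the genes at the end away from Ifi202b differed in both directions without passing. Aim2, the DNA sensor that nucleates an inflammasome, read 5.35, 5.64 and 4.95 in Ppif-/- hearts, against 6.00, 5.94 and 5.87 in WT hearts. Its difference was -0.63 ± 0.16 (limma adjusted p = 0.138), and the groups did not overlap. Ifi206 read 4.85, 4.78 and 4.88 in Ppif-/- hearts, against 3.61, 3.90 and 4.48 in WT hearts. It differed by 0.84 ± 0.19 (limma adjusted p = 0.111), and without WT heart 3, the WT heart nearest the Ppif-/- hearts, by 1.08 with an adjusted p of 0.0114, while its other alternatives gave 0.0652 to 0.292. Ifi209 differed by 0.66 ± 0.17 (adjusted p = 0.143) with groups apart, and Ifi213 by 0.76 ± 0.35 with groups that overlapped. Ifi207 (0.22), Ifi208 (-0.09) and Ifi214 (-0.04) also overlapped. Ifi206, Ifi208, Ifi209, Ifi213 and Ifi214 had WT values below the lower quartile of the arrays, so only Aim2 and Ifi207 were read clear of it in WT hearts. The Ppif-/- values of these genes were near or below it too, 4.78 to 4.88 for Ifi206, 4.09 to 4.66 for Ifi209 and 4.10 to 4.76 for Ifi213. The upward differences of Ifi206, Ifi209 and Ifi213 were therefore read near background in Ppif-/- and WT hearts alike.

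Since both families lie in clusters and vary between strains, the genes around each cluster were compared as well. Of 60 flanking genes, 20 at each cluster, 1 passed in limma over all probe sets and 8 had an unadjusted p under 0.05. Over 19920 genes these shares were 1.14% and 13.1%, so neither pooled count stands clear of the background. The 8 were 5 of 20 genes around the chromosome 3 cluster, which holds Gbp2b, and 3 of 20 around the chromosome 5 cluster. This uneven split was not tested. The 1 that passed was Tspan5, a tetraspanin on chromosome 3, which read 7.27, 7.03 and 6.98 in Ppif-/- hearts, against 7.82, 8.02 and 7.81 in WT hearts. Tspan5 fell by 0.79 on the log2 scale (SE 0.10, limma adjusted p = 0.0114), lower in 3 of 3 Ppif-/- hearts, and 6 measured genes lie between it and the cluster. That call was lost without Ppif-/- heart 2 (adjusted p = 0.0599), without Ppif-/- heart 3 (0.0582) and with all probe sets tested (0.0557), and over all its alternatives the adjusted p was 0.00463 to 0.0599. On the other side of the cluster, the nearest measured genes Kyat3 and Gtf2b, chosen after their values were seen, differed by -0.24 ± 0.07 and -0.31 ± 0.08 (limma adjusted p = 0.214 and 0.146). Around the chromosome 5 cluster the largest difference was that of Hsd17b11, -0.45 (limma adjusted p = 0.153). Around the Ifi200 cluster it was that of Apcs, 0.28 (limma adjusted p = 0.431), and 0 of its 20 flanking genes had an unadjusted p under 0.05. Many of those 20 are olfactory receptor genes with signals near background, so they could show little.

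**Figure D2:**
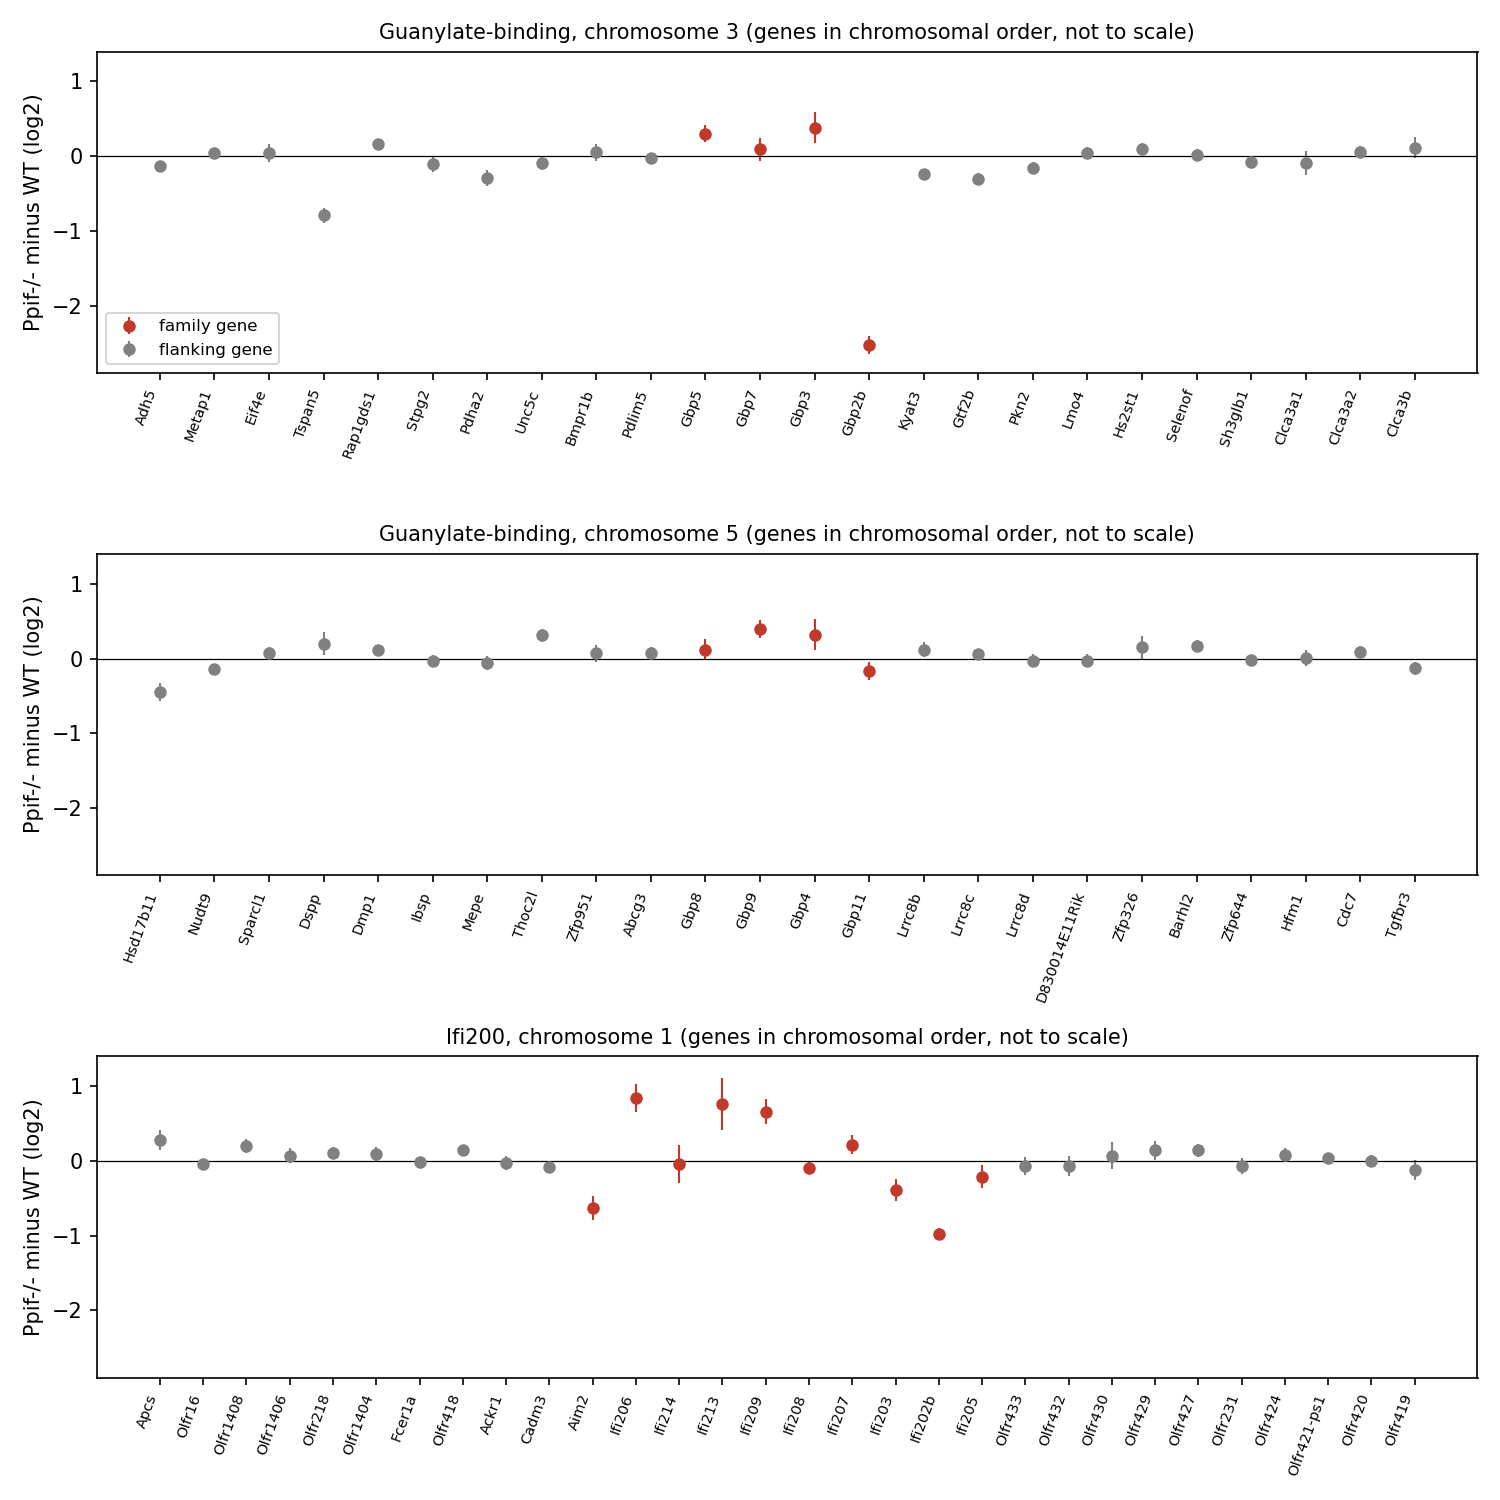
Differences in expression (Ppif-/- minus WT, log2, with the SE of the fit) for the measured genes of the 3 clusters (red) and the 10 measured genes on each side (grey), in chromosomal order and not to scale. Gbp2b at -2.53 stands alone between Gbp3 and Kyat3, and the Ifi200 genes scatter from -0.98 (Ifi202b) to 0.84 (Ifi206) between flanking genes that lie within 0.28 of 0. Ifi202b and Ifi206, at the ends of that range, were read near or below the lower quartile of the arrays.

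Among hearts of 1 genotype most guanylate-binding genes were highest in the same hearts, while Gbp2b was highest in others. Of the 8 measured alone, Ppif-/- heart 1 was the highest Ppif-/- heart for 6 and WT heart 2 the highest WT heart for 7. The exceptions were Gbp2b, highest in Ppif-/- heart 2 and WT heart 1, and Gbp8, highest in Ppif-/- heart 3. For Gbp2b the Ppif-/- values were near background, and WT heart 1 exceeded WT heart 2 only narrowly (7.61 and 7.56). Gbp8 was likewise highest in WT heart 2 only narrowly, at 5.34 beside 5.33 in WT heart 1. How many of all genes follow the same order was not counted. The median deviation of Gbp3, Gbp4 and Gbp7 from their genotype mean was 0.30 in Ppif-/- heart 1 and 0.23 in WT heart 2 (log2), and between -0.23 and -0.09 in the other 4 hearts. Their spread between hearts of a genotype (pooled SD 0.34, 0.34 and 0.24) exceeded that of 98.4%, 98.4% and 94.0% of probe sets, where the median was 0.11. It was uneven between genotypes, with an SD of 0.47 in Ppif-/- and 0.11 in WT hearts for Gbp3. For Gbp4 the SD was 0.23 in Ppif-/- and 0.42 in WT hearts, and for Gbp7 it was 0.27 and 0.21. Immunity-related GTPases, another interferon-induced GTPase family, deviated the same way, by 0.18 in Ppif-/- heart 1 and 0.43 in WT heart 2. For the interferon gamma pathway these medians were 0.12 and -0.03, for leukocyte markers 0.06 and 0.08, and for endothelial markers 0.10 and 0.08. Type I interferon signalling genes deviated by 0.09 and 0.07, and like the leukocyte markers lay below 0 in the other 4 hearts. The parts of cell content and of hybridisation across copies in this spread were not tested. Of the 10 Ifi200 genes, Ppif-/- hearts 1, 2 and 3 were the highest Ppif-/- heart for 1, 6 and 3, and WT hearts 1, 2 and 3 the highest WT heart for 3, 3 and 4. Ifi203 and Ifi205 spread about as widely as Gbp7, with pooled SDs of 0.24 and 0.23, above 93.6% and 92.9% of probe sets.

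**Figure D3:**
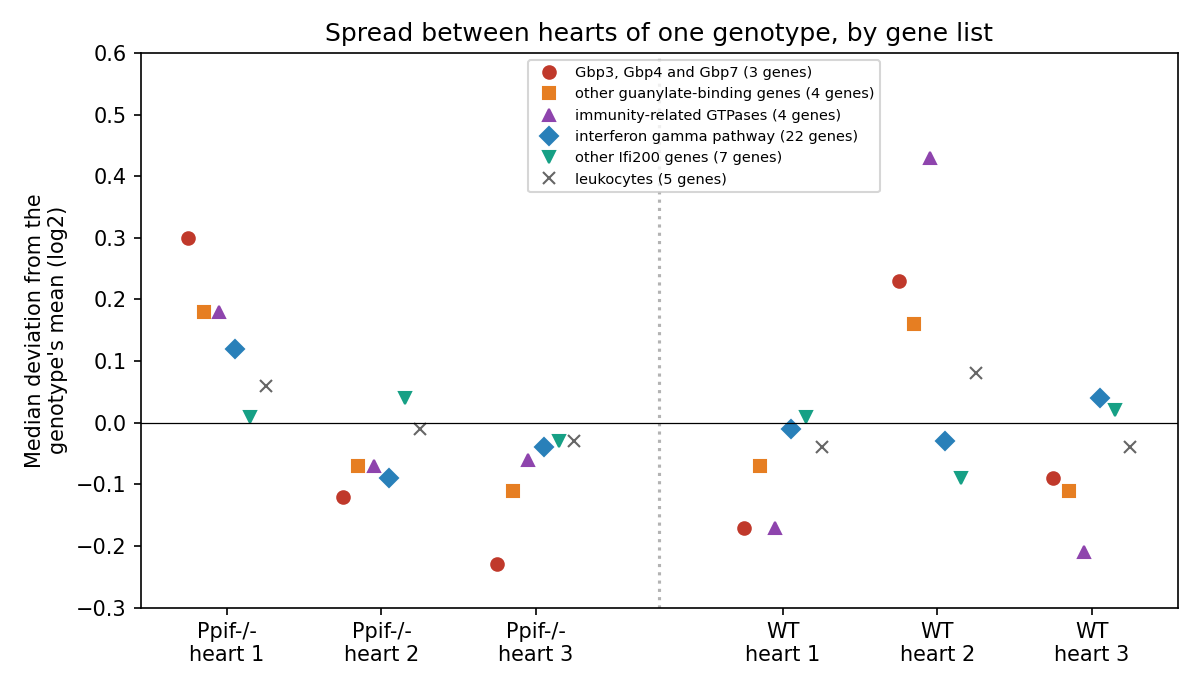
Median deviation from the genotype's mean (log2) of the genes of each list in each of 3 Ppif-/- and 3 WT hearts, 1 point per list and heart. The lists of guanylate-binding genes, which leave out Gbp2b, and the immunity-related GTPases stand at 0.16 or more in Ppif-/- heart 1 and WT heart 2. They lie below 0 in the other 4 hearts, while the other Ifi200 genes and the leukocyte markers stay within 0.1 of 0.

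The wider interferon pathways gave 0 calls in limma over all probe sets, in 4 lists chosen with earlier results of these data known. Their counts at an unadjusted p under 0.05 are to be read beside 13.1% of all 19920 genes. Of 4 immunity-related GTPases measured alone, 1 had an unadjusted p under 0.05, Gm12250 at -0.62 ± 0.19 (adjusted p = 0.228), with Iigp1 at -0.12, Gm4951 at 0.32 and Irgm1 at 0.16. Of 22 interferon gamma genes, 5 had an unadjusted p under 0.05 and the median difference was 0.08. Higher with the smallest p were the chemokine genes Cxcl10 (0.33 ± 0.10, adjusted p = 0.202) and Cxcl9 (0.54 ± 0.21). Lower were the receptor-associated kinase genes Jak2 (-0.31 ± 0.12) and Jak1 (-0.25 ± 0.10). Ifng itself read 5.01, 5.16 and 5.30 in Ppif-/- hearts, against 5.05, 5.03 and 4.96 in WT hearts, and its overlapping groups differed by 0.14 ± 0.09. The regulator Irf1 differed by 0.22 ± 0.11 and the receptor genes Ifngr1 and Ifngr2 by -0.12 ± 0.07 and 0.24 ± 0.14.

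Of 11 genes of type I interferon signalling, 2 had an unadjusted p under 0.05, beside 13.1% of all genes, and the median difference was -0.05. These were the transcription factor genes Irf9 (0.49 ± 0.13) and Irf7 (0.49 ± 0.15), higher in 3 of 3 Ppif-/- hearts each (limma adjusted p = 0.156 and 0.218), with Irf2 at -0.18 and Tyk2 at -0.14. Of 12 genes of DNA sensing and the inflammasome, 2 had an unadjusted p under 0.05, near that same 13.1%, and the median was -0.01. Sting1, the adaptor of cytosolic DNA sensing, read 8.01, 7.86 and 7.88 in Ppif-/- hearts, against 7.47, 7.48 and 7.62 in WT hearts. It differed by 0.39 ± 0.08 with groups apart and an adjusted p of 0.065, which was 0.0334 among probe sets with a mean of at least 6 and 0.043 under a variance trend, and 0.0647 to 0.202 in its other alternatives. Il1b differed by -0.39 ± 0.16, Il18 by -0.20 and the adaptor Pycard by 0.10. Irf7, Irf9 and Sting1, named for their small p, lay on the other side of 0 from Gbp2b and Ifi202b. Jak1, Jak2, Gm12250 and Il1b, named by the same rule, lay on the same side. Above 0 were 5 of 11 type I interferon genes and 4 of 12 genes of DNA sensing and the inflammasome. Whether the differences of these genes differ from those of Gbp2b and Ifi202b was not tested.

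Markers of cells that could carry interferon-induced transcripts were read beside these values. Their counts are to be read beside all 19920 genes, of which 1.14% passed and 13.1% had an unadjusted p under 0.05. Of 5 general leukocyte markers 0 passed in limma, 0 reached an unadjusted p of 0.05, and their summed signal on the log2 scale was 9.81 to 10.01 in Ppif-/- hearts and 9.79 to 9.90 in WT hearts. Of 7 macrophage markers 1 rose, Cd68 (0.56 ± 0.09, adjusted p = 0.0394), and 3 had an unadjusted p under 0.05, 2 higher and 1 lower, with a summed signal of 11.43 to 11.59 in Ppif-/- hearts and 11.42 to 11.45 in WT hearts. The lower one was Cd163, a scavenger receptor of resident macrophages, at -0.53 ± 0.12 (limma adjusted p = 0.0964). It read 7.18, 7.51 and 7.62 in Ppif-/- hearts, against 7.88, 7.98 and 8.04 in WT hearts, with groups that did not overlap. Of 6 T cell and 7 NK cell markers 0 passed, with 1 and 2 at an unadjusted p under 0.05, and sums of 7.76 to 7.87 and 7.64 to 7.85 in Ppif-/- hearts and 7.72 to 7.93 and 7.57 to 7.77 in WT hearts. Of 4 B cell markers 0 passed and 2 had an unadjusted p under 0.05, both lower, with sums of 7.09 to 7.32 in Ppif-/- hearts and 7.33 to 7.39 in WT hearts. Of 5 endothelial markers 0 passed and 0 had an unadjusted p under 0.05, with sums of 12.67 to 12.85 in Ppif-/- hearts and 12.75 to 12.85 in WT hearts. Of 5 fibroblast markers 1 fell, Pdgfra (-0.44 ± 0.06, adjusted p = 0.0246), the 1 with an unadjusted p under 0.05, with sums of 13.15 to 13.23 in Ppif-/- hearts and 13.19 to 13.23 in WT hearts. The calls of Cd68 and Pdgfra were lost without any 1 heart (adjusted p = 0.0551 to 0.145 and 0.0693 to 0.0991), with the replicate number as a block (0.098 and 0.0929) and with all probe sets tested (0.124 and 0.0727). The part of cell content in the differences of Gbp2b and Ifi202b was not tested.

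The genes whose profile over the 6 hearts was most like that of Gbp2b were Hal, Tmem100 and Pdlim3, on chromosomes 10, 11 and 8. Likeness was the root mean square distance between log2 profiles centred on their own means, which was 0.15 for Hal, 0.401 for Tmem100 and 0.43 for Pdlim3. Hal, which encodes histidine ammonia-lyase, read 4.83, 5.12 and 5.01 in Ppif-/- hearts, against 7.28, 7.39 and 7.35 in WT hearts. Like Gbp2b, all 3 genes were lower in every Ppif-/- heart than in every WT heart, and a distance over 6 hearts in 2 groups mainly reflects that split.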

How the data were processed

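Total RNA of 6 hearts was hybridised to Affymetrix Gene 1.0 ST arrays. Per the submitters' processing notes, the authors summarised each probe set with RMA, and the deposited table holds the result on the log2 scale. Which software or filters they used is not stated in the labels. The values, 1.91 to 14.63, were used as deposited, and the number of arrays limits the precision. The labels do not say whether the 2 genotypes were collected or processed together. The p-values set a difference against the spread between these hearts, and a batch that follows genotype could not be told apart from it.

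The platform annotation named the probe sets, Entrez identifiers linked them to current symbols of the GRCm38.p6 gene table, and that table also gave gene order. Of 35557 probe sets, 21789 carried 1 symbol, 1621 several and 12147 none, and the 23410 with a symbol were fitted in R 4.3.3 by limma 3.58.1 (2-sided, lmFit then eBayes, no covariates, Benjamini-Hochberg adjustment, threshold 0.05). A gene with several probe sets was represented by the one with the highest mean over all arrays. No set test was run. An exact permutation test of 3 against 3 cannot go below 0.1.

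Members, gene lists (6 of pathways, 8 of cell types) and the rule for named genes were chosen with earlier results of these data known. The rule took all members, all other measured family genes, up to 2 genes per direction with the smallest p in each pathway list and any past the threshold, flanking genes past the threshold, and the 3 genes most like Gbp2b. Listed genes without a probe set of 1 symbol were not analysed here. On simulated arrays of this comparison with 23410 probe sets, the fit found 54% of shifts of 0.5 (log2), 78% of shifts of 1 and 100% of larger ones. False calls made up 5.14% of calls, and 0 calls were made when nothing was changed. The changed probe sets were drawn from all 23410, with independent noise. These shares therefore do not hold for members with a wider spread, such as Gbp3 and Gbp4 (pooled SD 0.34 each, median over all probe sets 0.11).

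Alternatives were a block for the replicate number, a mean of at least 6 over all arrays, all probe sets, quantile normalisation, centring on array medians, a variance trend, and leaving out each heart in turn.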

Additional observations from a re-analysis of the deposited data

How the results depend on the processing

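The difference of Gbp2b was -2.64 to -2.44 over its 12 alternatives and that of Ifi202b -1.03 to -0.90 over its 11, as a description, since both were listed with these differences known. On probe sets with a mean of at least 6, the members past the threshold numbered 1 in place of 2, because Ifi202b was then not tested, and Gbp2b passed that filter only through its WT level. Of the other members measured alone, only Gbp7 changed sign, in 1 of 12 alternatives. The count over all probe sets was 254, and 160 with the replicate number as a block, 402 on the brighter probe sets, 131 with all probe sets of the table, 453 with a variance trend, and 131 to 171 without 1 heart. Same-numbered hearts are not shown to be paired, since their deviations correlated at -0.077, -0.061 and 0.118 across probe sets. The block ended the calls of Cd68 and Pdgfra. Other genes of both families past the threshold numbered 0, and 0 to 1 without 1 heart. Genes of the pathway and cell type lists past it numbered 2, and 0 with the block, 0 with all probe sets, 4 with a variance trend and 0 without any 1 heart. Flanking genes past it numbered 1, and 0 with all probe sets and 0 to 1 without 1 heart. The cause of these changes was not tested. Depth has no counterpart here, and signals near the lower quartile of the arrays limit Ifi202b and the Ppif-/- level of Gbp2b.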
